A study of Homo sapiens with 4 samples.

Results

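The PHLDA family comprises PHLDA1, PHLDA2 and PHLDA3, 3 of the 57820 genes in the count files. The encoded proteins are small and built around a pleckstrin homology (PH) domain, the fold with which many signalling proteins bind phosphoinositide lipids at membranes. PHLDA3 is a transcriptional target of p53 and its PH domain competes with that of the kinase AKT for the membrane lipid, so that it restrains AKT activation. PHLDA2 is an imprinted gene, expressed from the maternal copy, and is known for limiting the growth of the placenta. PHLDA1, also called TDAG51, carries additional stretches rich in glutamine, proline and histidine around the PH domain, and is known as a gene that growth factor signalling and several kinds of cell stress can switch on.

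RNA was measured in SY5Y cells, a human neuroblastoma line whose label reads MYCN wild type, after treatment with 3 µM SGSS05-NS, an inhibitor of the lysine methyltransferase SETD8 (gene KMT5A), or with the solvent DMSO. The labels give 12 h of treatment and 2 libraries per condition, which the methods describe as independent biological replicates. The comparison of SGSS05-NS with DMSO asks which transcripts change with this compound in a cell line that retains p53. The paper also reports that compounds of this series inhibit other methyltransferases at low micromolar doses. Effects through SETD8 and through other targets cannot be told apart here. The methods name the compound SGSS05-NS3 and give another dose for this line, while a figure legend of the paper gives 3 µM. The name and dose of the labels are used here. All 4 libraries come from this line, with no second line, no second compound and no other time point analysed here.

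The 3 genes were chosen by name with the counts of this same contrast in view, so the differences between SGSS05-NS and DMSO for the family are given as a description, without a test. Levels are CPM, the fragments of a gene relative to all assigned fragments of the library after TMM scaling, and log2 fold changes with their standard errors (SE) are those of edgeR's fit over all 16468 genes that passed the filter on low counts. PHLDA1 and PHLDA3 passed that filter. PHLDA2 was 1 of 14287 genes that had counts and did not pass it.

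Each library held between 21463105 and 25350204 fragments assigned to genes. Fragments in no annotated exon on the counted strand were more frequent in both SGSS05-NS libraries (16.1% and 15.3%) than in both DMSO libraries (12.4% and 12.3%). SGSS05-NS raised 1049 of the tested genes (6.37%) and lowered 1341 (8.14%) by edgeR's quasi-likelihood test at a Benjamini-Hochberg adjusted p under 0.001. In 6228 genes (37.8%), both SGSS05-NS libraries lay above both DMSO libraries. PHLDA1 and PHLDA3 belong to both of these higher groups, a count of 2 of 2 tested members from which nothing is read, since the contrast was used to choose them. KMT5A, which encodes the inhibited enzyme, stood at 55.7 ± 1.53 CPM with DMSO and 82.9 ± 0.0952 CPM with SGSS05-NS (SD, n = 2 each), a log2 fold change of 0.57 (SE 0.09, adjusted p = 0.00037 by edgeR). The label's cell type was checked with adrenergic neuroblast markers: 9 of 10 passed the filter, and TH, the enzyme that begins catecholamine synthesis, was close to absent with 5 fragments over all libraries. The summed level of that list was 3523 and 3812 CPM in the DMSO libraries and 2152 and 1929 CPM in the SGSS05-NS libraries. Of its 9 tested genes, 7 (77.8%) were lower and 0 higher, beside 8.14% and 6.37% of all genes tested. CHGA, a protein of secretory granules, was among the lower ones, at −1.37 on the log2 scale. The summed level of mesenchymal (substrate-adherent) neuroblast markers was 280 and 317 CPM against 281 and 270 CPM. Of 9 tested, 3 (33.3%) were higher (FOSL1, FOSL2 and VIM) and 1 (11.1%) lower (TWIST1, −0.77), and PRRX1 was at 0. The part of these marker levels in the values of the PHLDA genes was not tested, and in bulk RNA fewer cells of a type cannot be told apart from less of an RNA per cell.

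PHLDA3 was the family member with the most RNA in every library and the largest difference between the conditions. DMSO replicates 1 and 2 held 312 and 240 of its fragments, SGSS05-NS replicates 1 and 2 held 2616 and 2415. These correspond to 12.4 and 10.3 CPM with DMSO and to 118 and 103 CPM with SGSS05-NS. Both treated libraries lay far above both controls, with a gap between the groups many times wider than the distance between replicates. The mean level was 11.4 ± 1.53 CPM with DMSO and 110 ± 10.7 CPM with SGSS05-NS (SD, n = 2 each), a log2 fold change of 3.28 (SE 0.12) or a 9.69-fold higher level. Counting error alone gives the ratio of the pooled counts a 95% interval from 8.85 to 10.6. The replicates differed by more than counting error, since neither interval held 1. The level in replicate 1 was 1.21 times that in replicate 2 with DMSO (95% interval from counting 1.02 to 1.44). With SGSS05-NS it was 1.15 times that in replicate 2 (1.09 to 1.21).

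Of the 16468 genes tested, 126 had a larger log2 fold change than PHLDA3. Its nearest neighbours in that order were DNAH2 (3.29), a dynein heavy chain of cilia, and PGF (3.28), a growth factor of the VEGF family. Per kilobase of exon, PHLDA3 stood at the 47.6th percentile of the tested genes with DMSO (3.50 ± 0.471 CPM per kb) and at the 91.4th with SGSS05-NS (34.0 ± 3.31 CPM per kb).

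**Figure D1:**
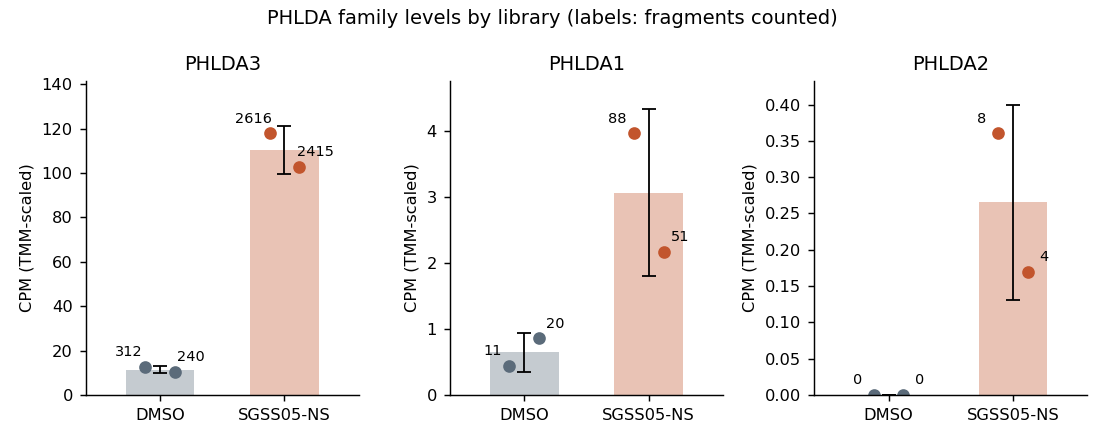
Level of PHLDA3, PHLDA1 and PHLDA2 in each library, in TMM-scaled CPM on a separate linear axis for each gene. Points are libraries (replicate 1 left, replicate 2 right) labelled with the fragments counted, bars are the means of the 2 libraries and error bars their SD. Both SGSS05-NS libraries lie above both DMSO libraries for each gene, at about 110 CPM for PHLDA3, 3.07 CPM for PHLDA1 and 0.265 CPM for PHLDA2.

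PHLDA3 (ENSG00000174307.5) lies on the minus strand of hg19 at chr1:201433406-201438365. GENCODE gives it coding transcripts of 2 and 3 exons with the same protein of 127 residues, the shortest of the family, hardly longer than a PH domain. In GENCODE 44 its last exon, largely 3′ untranslated, holds a separately annotated long non-coding RNA on the same strand, ENSG00000224818 at chr1:201433511-201434274, with 598 exonic bases. The fragments counted to the non-coding gene are not among those of PHLDA3. Counting was done on GENCODE 19, whose model of PHLDA3 was not used here. How far the counted PHLDA3 exons covered this stretch was therefore not tested. A fragment over exons of both genes in that model would be ambiguous and counted to neither, so the fragments of the pair may be incomplete.

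ENSG00000224818 had 28 and 24 fragments with DMSO and 299 and 308 with SGSS05-NS. Its levels were 1.12 and 1.03 CPM with DMSO and 13.5 and 13.1 CPM with SGSS05-NS, so the groups were as widely separated as for PHLDA3. Its log2 fold change was 3.62 (SE 0.20, adjusted p = 1.5e-07 by edgeR's quasi-likelihood test). It made up 8.24% and 9.09% of the combined fragments of the pair with DMSO, and 10.3% and 11.3% with SGSS05-NS. With these fragments added to those of PHLDA3 (340, 264, 2915 and 2723 in all), the log2 fold change of PHLDA3 was 3.31 (SE 0.12), against 3.28 without them. Since both genes lie on one strand, whether the fragments came from a transcript of its own or from the end of PHLDA3's cannot be told apart. The assignment to strands itself was clean here: the strand opposite to PHLDA3 held 0, 1, 5 and 6 fragments.

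Among the p53 targets, 34 of the 41 genes tested (82.9%) were higher with SGSS05-NS and 0 were lower. Of all genes tested, 6.37% were higher and 8.14% lower. The median log2 fold change of the p53 targets was 1.57, beside 0.01 over all genes tested. The list holds genes known to be switched on by p53, to which PHLDA3 also belongs, and PHLDA3 was kept out of it. GDF15, a stress-induced secreted factor, had a log2 fold change of 7.01. BTG2, which restrains cell division, had one of 3.98, and SESN2, a stress-induced inhibitor of mTORC1, one of 3.82. Only 7 of the 41 genes had a larger log2 fold change than PHLDA3, and the median p53 target changed by less than PHLDA1 as well. ASCC3 was the only tested member with a negative value (−0.57), which did not pass the threshold.

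PHLDA3 is known to act on the AKT pathway. Of 35 genes of that pathway tested, 2 (5.71%) were higher and 7 (20.0%) lower, beside 6.37% and 8.14% of all genes tested, with a median log2 fold change of 0.05. The higher genes were INPP5D (3.07, SE 0.38), which encodes the lipid phosphatase SHIP1, and PHLPP2 (0.64, SE 0.11), which encodes a phosphatase that removes an activating phosphate from AKT. The lower genes included RPTOR (−1.67), the scaffold of mTORC1; MAPKAP1 (−1.13), a subunit of mTORC2; IGF1R (−1.02) and INSR (−0.64), the receptors for insulin-like growth factor and insulin; and GSK3B (−0.92), a kinase that AKT inhibits. AKT1 (−0.06, SE 0.09) and AKT2 (−0.39, SE 0.09) did not pass the threshold. INPP5D was at 0.331 ± 0.0167 CPM with DMSO and 2.82 ± 0.982 CPM with SGSS05-NS (SD, n = 2 each), and was the only gene of the pathway with a log2 fold change above that of PHLDA1. None of the 35 exceeded PHLDA3. RNA levels say nothing of the activity of AKT, which is set by phosphorylation.

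Other proteins with phosphoinositide-binding PH domains showed no common direction at an adjusted p under 0.001. Of 23 genes tested, 3 (13.0%) were higher and 3 (13.0%) lower, beside 6.37% and 8.14% of all genes tested. Their median log2 fold change was −0.16. Fewer were higher without DMSO replicate 1. At an adjusted p under 0.05 by edgeR, 5 were higher and 11 lower, beside 3728 and 3903 of all 16468 genes tested. The log2 fold change was positive in 9 of the 23. The higher genes were PHLDB3 (1.27), a longer protein that shares the PHLD name, PLEKHA3 (0.71), which binds a Golgi lipid, and OSBP (0.55), which carries lipids to the Golgi. The lower genes included PREX1 (−0.74), an exchange factor for Rac, and GAB2 (−0.65), an adaptor below growth factor receptors. None of the 23 exceeded PHLDA1 or PHLDA3. Some genes, such as AKT1, AKT2 and PDPK1, stand in both of these lists.

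PHLDA1 stood at a much lower level. Only 11 and 20 fragments were assigned to it with DMSO, and 88 and 51 with SGSS05-NS. These are 0.438 and 0.856 CPM with DMSO and 3.97 and 2.17 CPM with SGSS05-NS. The groups did not overlap, but the replicates were further apart than for PHLDA3, and replicate 1 was the lower of the pair with DMSO and the higher with SGSS05-NS. The mean was 0.647 ± 0.295 CPM with DMSO and 3.07 ± 1.27 CPM with SGSS05-NS (SD, n = 2 each), a log2 fold change of 2.24 (SE 0.38) or a 4.73-fold higher level. Counting error alone gave the pooled ratio a 95% interval from 3.20 to 7.26. The level in replicate 1 was 0.512 times that in replicate 2 with DMSO (95% interval from counting 0.222 to 1.12), which is within counting error, and 1.83 times with SGSS05-NS (1.28 to 2.63), which is not.

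A larger log2 fold change than that of PHLDA1 was found in 285 tested genes, and its nearest neighbours in that order were the non-coding genes FAM131B-AS2 (2.25) and AGAP1-IT1 (2.24). Per kilobase of exon, PHLDA1 stood at the 4.48th percentile of tested genes with DMSO (0.109 ± 0.0499 CPM per kb) and at the 16.0th with SGSS05-NS (0.519 ± 0.215 CPM per kb). It thus remained a gene of low level under both conditions.

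PHLDA1 (ENSG00000139289.9) lies on the minus strand of hg19 at chr12:76419227-76425556, with 2 exons and 5913 exonic bases. GENCODE lists coding transcripts for proteins of 401 and 260 residues, the longer of which is the longest of the family. The 250 bases before its RefSeq start are shown because PHLDA1 was the only one of the 3 genes matched in the RefSeq promoter table (PHLDA2 and PHLDA3 were not matched). They lie on the minus strand of GRCh38.p14 at chr12:76031777-76032026, a build other than that of the counts, and the capitals mark the match to the GC box, the element that Sp1 factors bind:
PHLDA1 promoter: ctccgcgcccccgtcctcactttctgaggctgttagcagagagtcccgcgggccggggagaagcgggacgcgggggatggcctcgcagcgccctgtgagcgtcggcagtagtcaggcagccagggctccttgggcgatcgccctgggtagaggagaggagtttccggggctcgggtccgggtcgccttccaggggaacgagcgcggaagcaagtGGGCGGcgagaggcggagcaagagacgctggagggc
This stretch has a GC content of 70.4%, above that of 80.1% of the 35116 promoters of the table, whose median is 58.0%. The GC box GGGCGG was found at position −36 from the start, counting both strands, as it was in 42.6% of all promoters. Neither strand held the heat shock element GAANNTTC (present in 5.78% of promoters), the cAMP response element TGACGTCA (1.65%), the AP-1 site TGANTCA (6.57%), the CHOP-ATF4 composite TGATGNAAT (0.888%) or the TATA box TATAAA (10.7%). The p53 half-site (5.57%) and the CArG box of serum response factor (1.16%), searched by their usual degenerate letters, were not found either. A match or its absence in this window describes the letters only.

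The strand of the fragments mattered for PHLDA1, because 2 non-coding genes are annotated on the opposite strand. PHLDA1-AS1 (chr12:76424274-76425158, plus strand) lies inside PHLDA1, across its first exon. PHLDA1-DT (chr12:76426438-76427677, plus strand) points away from PHLDA1 and begins 882 bases upstream of its start in GENCODE 44. Fragments on their own strand were almost lacking: PHLDA1-AS1 had 0 fragments on its strand in all 4 libraries, which allows up to 3 per library at this depth, and PHLDA1-DT had 0, 0, 1 and 0. On PHLDA1's strand, however, the exons of PHLDA1-AS1 held 3 and 2 fragments with DMSO and 12 and 7 with SGSS05-NS, and those of PHLDA1-DT 2 and 1 with DMSO and 11 and 8 with SGSS05-NS. Counting without regard to strand makes such fragments ambiguous and leaves PHLDA1 with 7, 17, 65 and 37.

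The arithmetic of the count columns shows where those fragments went. In each library, PHLDA1's count without strand equalled the sum of its counts on both strands, less the fragments over the exons of PHLDA1-AS1 and PHLDA1-DT on PHLDA1's strand and less the fragments of PHLDA1-DT itself, with a remainder of 0 in all 4 libraries. The gene model used for counting therefore included fragments over PHLDA1-DT's exons, upstream of the start that GENCODE 44 gives. They made up 18.2% and 5.0% of PHLDA1's fragments with DMSO and 12.5% and 15.7% with SGSS05-NS. Without them, the log2 fold change of PHLDA1 was 2.18 (SE 0.41), against 2.24 with them.

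The density of fragments on PHLDA1's strand was compared over 3 stretches. Over the upstream exons of PHLDA1-DT it was 0.0795 CPM per kb with DMSO (95% exact Poisson interval 0.0164 to 0.232, both libraries pooled) and 0.534 with SGSS05-NS (0.321 to 0.833). Over the exons of PHLDA1-AS1 it was 0.187 (0.0606 to 0.435) and 0.752 (0.453 to 1.17), and over the rest of PHLDA1's exons 0.0886 (0.0561 to 0.133) and 0.412 (0.336 to 0.501). The density was higher with SGSS05-NS over each stretch, and under either condition the intervals of the upstream stretch and of the rest of the exons overlapped. These intervals cover counting error only, and a fragment that touches the edge of a short stretch counts in full, which raises the density of the shorter stretches. The nearest tested gene upstream, NAP1L1 on the same strand, a histone chaperone, ends 4.81 kb before PHLDA1 and was at 739 CPM with DMSO and 710 CPM with SGSS05-NS. The source of the upstream fragments was not tested.

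Groups of genes around the known triggers of PHLDA1 were described beside it. Growth factor signalling through ERK is known to switch on the MAPK output genes. Of 15 tested, 7 (46.7%) were higher and 0 lower, beside 6.37% and 8.14% of all genes tested. Their median log2 fold change, however, was 0.10. DUSP5 (3.14), DUSP4 (1.45) and SPRY4 (1.06), feedback inhibitors of the pathway, EGR1 (4.38), an immediate early transcription factor, EPHA2 (1.69), an ephrin receptor, and SPRED3 (1.52) passed the threshold. FOSL1, an AP-1 subunit, did so with 1 and 0 fragments under DMSO and 152 and 106 under SGSS05-NS. DUSP6 (−0.01), ETV5 (0.00), SPRY2 (−0.43) and CCND1 (−0.33), other ERK targets, did not. PHLDA1 was exceeded by 3 of the 15 genes.

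The factor ATF4 drives the integrated stress response genes when translation initiation is restrained. Of 19 tested, 13 (68.4%) were higher and 0 lower, beside 6.37% and 8.14% of all genes tested. Their median log2 fold change was 1.52. DDIT3 (4.61) encodes the pro-apoptotic factor CHOP, and PPP1R15A (3.05) encodes GADD34, which ends the response by restoring translation. SESN2 (3.82) stands in this list and among the p53 targets. Of the 19 genes, 6 exceeded PHLDA1 and 3 exceeded PHLDA3. The amino acid synthesis genes of the list, PSAT1 (−0.01), PHGDH (0.27), ASNS (0.55), did not pass the threshold.

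All 15 heat shock response genes tested were higher, beside 6.37% of all genes tested. Their median log2 fold change was 1.62. SERPINH1 (2.87), a chaperone for collagen, and BAG3 (3.06), a partner of HSP70, were among those with the smallest p-values. HSPA6, an inducible HSP70 gene, had 1 and 0 fragments with DMSO and 6238 and 9408 with SGSS05-NS. Of the 15 genes, 5 exceeded PHLDA1 and 2 exceeded PHLDA3. HSPA1A and HSPA1B, near-identical copies, did not pass the filter, and fragments that map to both are not assigned to a gene. With the 3 groups moving under the same treatment, their relation to the level of PHLDA1 was not tested.

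PHLDA2 was barely detectable. No fragment was assigned to it in either DMSO library (0 and 0), and 8 and 4 were with SGSS05-NS, or 0.360 and 0.170 CPM. Both SGSS05-NS libraries thus lay above both DMSO libraries, at a level (0.265 ± 0.135 CPM, SD, n = 2) that did not reach the filter for testing. A count of 0 over both DMSO libraries allows up to 3 fragments, or 0.0619 CPM, and against that floor the pooled SGSS05-NS level of 0.262 CPM was at least 4.24-fold higher. The bound takes the 12 SGSS05-NS fragments as exact, and the ratio of 12 fragments to the floor of 3 has a 95% counting interval from 1.14 to 23.4. Without DMSO replicate 1 the bound was 2.04, without DMSO replicate 2 it was 2.20 and without SGSS05-NS replicate 1 it was 2.75, and it was 5.82 without SGSS05-NS replicate 2. The replicate levels with SGSS05-NS, at a ratio of 2.12 (0.568 to 9.62), were within counting error of each other.

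PHLDA2 (ENSG00000181649.5) lies on the minus strand of hg19 at chr11:2949503-2950650, with 2 exons, 920 exonic bases and a protein of 152 residues. It belongs to the imprinted cluster of 11p15.5, in which 1 gene of 12 tested (8.33%) was higher and 0 were lower. Over all genes tested, 6.37% were higher and 8.14% lower. The median log2 fold change of the cluster was 0.24. The higher gene was KCNQ1OT1 (1.31, SE 0.13, adjusted p = 1.5e-05 by edgeR), the paternally expressed non-coding RNA of the domain that holds PHLDA2. CDKN1C, a maternally expressed inhibitor of the cell cycle in the same domain, was at 0.04 (SE 0.12), and TSSC4 (0.52) and CARS1 (0.49) did not pass the threshold. Of the growth regulators in the neighbouring domain, IGF2 was at 0.25 (SE 0.27) and H19 at 0.10 (SE 0.40). The counts do not separate maternal from paternal copies.

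Per kilobase of exon, the order of the levels with SGSS05-NS was PHLDA3, PHLDA1 and PHLDA2. PHLDA3 stood 65.6 times above PHLDA1 and 118 times above PHLDA2. PHLDA1 (0.519 ± 0.215 CPM per kb) and PHLDA2 (0.288 ± 0.146 CPM per kb) differed by a factor of 1.80, and the values of PHLDA1 (0.671 and 0.367) and of PHLDA2 (0.392 and 0.185) overlapped between libraries. With DMSO, PHLDA3 stood 32.0 times above PHLDA1, and PHLDA2 was not detected. Exon lengths were taken from GENCODE 44 while fragments were counted on GENCODE 19, and for PHLDA1 the counted stretch differed as described above.

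Of all fragments counted to the family, PHLDA3 held 96.6% and 92.3% with DMSO and 96.5% and 97.8% with SGSS05-NS. PHLDA1 held 3.41% (95% Clopper-Pearson interval 1.71 to 6.01) and 7.69% (4.76 to 11.6) with DMSO, and 3.24% (2.61 to 3.98) and 2.06% (1.54 to 2.71) with SGSS05-NS. Both DMSO shares of PHLDA1 lay above both SGSS05-NS shares, and the interval of DMSO replicate 2 lay above both SGSS05-NS intervals, while that of DMSO replicate 1 held both SGSS05-NS shares. PHLDA2 held 0.295% and 0.162% in the SGSS05-NS libraries.

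The genes around the 3 loci did not move as a block. Next to PHLDA3, CSRP1 (14.3 kb upstream, log2 fold change 0.29, SE 0.12), TNNT2 (86.5 kb downstream, −0.72, SE 0.40) and TMEM9 (293 kb downstream, 0.15, SE 0.10) did not pass the threshold. NAV1, a neuron navigator protein gene 69.9 kb upstream, was lower (−0.70, SE 0.12, adjusted p = 0.00070 by edgeR). Next to PHLDA1, NAP1L1 (−0.06, SE 0.11), BBS10 (313 kb upstream, −0.46, SE 0.10) and KRR1 (514 kb downstream, −0.05, SE 0.09) did not pass the threshold. GLIPR1-AS1, a non-coding gene 536 kb downstream of PHLDA1, had 2 and 3 fragments with DMSO and 10 and 18 with SGSS05-NS (2.51, SE 0.56, adjusted p = 0.0034 by edgeR), which misses the threshold as well. Next to PHLDA2, SLC22A18 (3.03 kb downstream, 0.49, SE 0.32), NAP1L4 (15.0 kb upstream, −0.15, SE 0.09), SNORA54 (34.4 kb upstream, −0.83, SE 0.27) and CDKN1C (42.5 kb downstream) did not pass it. PHLDA1 and PHLDA2 each have a NAP1L gene as the nearest tested gene upstream, on the same strand, NAP1L1 and NAP1L4, and neither of these histone chaperone genes passed the threshold.

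The tested genes whose levels over the 4 libraries were most like those of PHLDA3 were ENSG00000224818 (distance 0.195) and PGF (0.292). Likeness was the Euclidean distance between log2(CPM + 0.5) values, each gene centred on its own mean. PGF was at 5.22 and 5.26 CPM with DMSO and 49.1 and 52.5 CPM with SGSS05-NS. For PHLDA1 the nearest were ENSG00000272405 (0.309), BCAN-AS1 (0.322) and PINCR (0.350), a non-coding RNA known to be induced by p53. All 3 shared with PHLDA1 a lower value in replicate 1 than in replicate 2 with DMSO and a higher one with SGSS05-NS. Since they were picked for a similar profile, nothing is read from this. PINCR was at 0.0399 and 0.0856 CPM with DMSO and 1.40 and 0.723 CPM with SGSS05-NS, on 1 and 2 fragments in the DMSO libraries. The log2 fold changes of ENSG00000272405, BCAN-AS1 and PINCR were 2.36, 4.54 and 3.98, beside 2.24 for PHLDA1. At such low levels the offset of 0.5 CPM shrinks the differences that enter the distance, so likeness here does not mean an equal fold change. With 4 libraries in 2 groups, such distances describe the pattern and carry no test.

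The values of PHLDA3 and PHLDA1 were recomputed under each processing alternative. For PHLDA3 the log2 fold change lay between 3.24 and 3.31 under the other settings and between 3.13 and 3.41 with any library left out. For PHLDA1 it lay between 2.12, without regard to strand, and 2.28, and between 1.74 and 2.77 with any library left out. The lowest value came without SGSS05-NS replicate 1 and the highest without DMSO replicate 2.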

How the data were processed

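RNA of 4 SY5Y libraries was sequenced, 2 with DMSO and 2 with SGSS05-NS, and condition and replicate number were taken from the labels. Reads were trimmed by the authors (Trimmomatic 0.30), mapped to hg19 (STAR 2.4.2a) and counted on GENCODE 19. The deposited values are raw counts of fragments per gene, in 3 columns (without strand and for each strand), with no normalization. The methods describe a stranded kit with removal of ribosomal RNA and the labels another kit. Over the gene rows, 4.64% to 5.05% of fragments lay on the opposite strand, and the reverse-strand column was analysed. The summary rows were left out, and among them fragments in no exon on the counted strand made up 12.3% to 16.1% of all fragments. Symbols, positions and lengths came from GENCODE 44 on GRCh37; 2282 identifiers, with 4.52% of the counts, had no symbol there.

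edgeR 4.0.16 in R 4.3.3 was used (filterByExpr, TMM, quasi-likelihood test, Benjamini-Hochberg over 16468 genes, threshold 0.001, the study's). The SE is the log2 fold change divided by the square root of F. On counts simulated for SGSS05-NS against DMSO over 16468 genes, of which 200 were changed, 80% of the changed genes were recovered, 70% of those changed 2-fold, and 1 unchanged gene was called. Replicates differed by more than counting noise (chi-square per degree of freedom 8.76 and 11.8), so none was a duplicate. Intervals and floors cover counting error only. With 2 libraries a condition, p-values and SEs rest on the spread between these libraries, which edgeR estimates for each gene with help from the other genes.

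The members and the 9 gene lists (p53 targets, AKT pathway, phosphoinositide-binding PH domain, MAPK output, integrated stress response, heat shock response, 11p15.5 imprinted cluster, adrenergic and mesenchymal neuroblast markers) were chosen with earlier results of these data known; they are described by counts and medians, with no test of a list. Genes named are the members, KMT5A, AKT1 and AKT2, the 3 genes of each list with the smallest p-values, the nearest 2 tested genes on either side of each member, the 3 with the most similar profile and those next to it in fold change. The other genes of a list were named after their values were seen. Some genes that this rule names are not reported here. Alternatives were DESeq2 1.42.0 and its size factors, limma 3.58.1 (voom), edgeR's likelihood ratio test, library size only, other filters and thresholds, counts without strand, a replicate block and each library left out; the gene-model alternatives of PHLDA1 and PHLDA3 were chosen after seeing the data.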

Additional observations from a re-analysis of the deposited data

How the results depend on the processing

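With 2 libraries a condition and 11 and 20 DMSO fragments, the level of PHLDA1 is limited by depth and by the spread of replicates, and that of PHLDA2 by depth. Leaving out each library in turn gave log2 fold changes of 1.74 to 2.77 for PHLDA1 (1.74 without SGSS05-NS replicate 1, 2.77 without DMSO replicate 2) and 3.13 to 3.41 for PHLDA3, with the lone library of a condition assumed to vary like the other condition's. The lower bound of PHLDA2's fold was 2.04 and 2.20 without DMSO replicates 1 and 2, where the floor rests on 1 library, 2.75 without SGSS05-NS replicate 1 and 5.82 without SGSS05-NS replicate 2, and 4.22 to 4.33 under the other scalings and without strand; its log2 fold change was not fitted, since it did not pass the filter. The count of genes higher was 2022 and of genes lower 2267 by the likelihood ratio test, 2034 and 2570 with no filter on low counts, and 3728 and 3903 at an adjusted p under 0.05; the cause of the differences with the first of these settings was not tested. Replicate numbers did not pair the libraries (correlation of the deviations of same-numbered libraries 0.05), and the fit with a replicate block called 1759 genes higher and 2007 lower, with log2 fold changes of 2.22 for PHLDA1 and 3.28 for PHLDA3. Left-out libraries gave 1037 to 1279 genes higher and 1322 to 1649 lower. DESeq2 gave no adjusted p for 1278 genes. Of the lists' counts, 217 stayed within 1.5 times of the value reported, 30 were larger and 5 smaller. Under the settings that keep all 4 libraries, the AKT pathway had 1 to 6 genes higher and 5 to 14 lower. Its 2 higher genes became 1 with a filter of at least 10 counts in every library and with counts without regard to strand. ASCC3, the p53 target below 0, was called lower under 8 settings.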
